A study of Homo sapiens with 2 samples.

Results

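Genes that extracellular signal-regulated kinase (ERK) signalling induces and that report on or restrain it were read after an siRNA against CTNNB1 in HCC15 cells, a human lung cancer line kept in culture. The set has 10 genes, DUSP4, DUSP5, DUSP6, SPRY2, SPRY4, SPRED1, IER3, PHLDA1, ETV4 and ETV5, out of 12531 genes that passed the signal filter. They were read through every probe set of the Affymetrix array annotated to 1 of these symbols alone, which gave 26 of the 54675 probe sets. The genes were selected on their roles and with the ratios of these same arrays already known, so all their values are a description and no test is given.

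The study compared HCC15 cells transfected with a CTNNB1 siRNA with HCC15 cells given a control siRNA, 1 array each, collected 48 h after transfection. CTNNB1 encodes beta-catenin, and by its title the series looked for Wnt targets in lung cancer with mutated CTNNB1. Both cultures grew in RPMI medium with 5% serum, and the sample title of the control carries the word Tax, whose meaning the labels do not give. The cells are 1 line, labelled squamous, and the labels do not name the control siRNA's target.

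The ERK pathway carries signals from growth factor receptors through RAS, RAF and MEK kinases to ERK, which enters the nucleus and switches on early genes. Several of these genes encode inhibitors that act back on the pathway. Dual-specificity phosphatases (DUSP) remove phosphates from ERK and related kinases, while Sprouty (SPRY) and SPRED proteins act upstream, between receptor and RAF. ETV4 and ETV5 are ETS-family transcription factors of the PEA3 group, whose transcripts are widely used as readouts of pathway output.

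The knockdown and the cells were checked first. CTNNB1 itself, in its brightest probe set (201533_at), read 1224 in the control and 339 after knockdown, 27.7% of the control. The other CTNNB1 probe sets read 51% (1554411_at) and 91.3% (223679_at). AXIN2, a feedback target of beta-catenin, read 906 and 273. All 5 epithelial markers (EPCAM, CDH1, KRT8, KRT18, KRT19) were bright, with signals from 533 to 12013. Of 5 squamous markers analysed, KRT5, KRT14, DSG3 and DSC3 lay under the signal filter and SOX2 read 60.1 and 41.6. These 5 do not bear out the squamous label. TP63 and KRT6A, the other 2 listed, were not analysed, so the label cannot be judged from this list. The signals of the 5 squamous markers analysed summed to 176 with the control siRNA and 115 with the CTNNB1 siRNA. Of 5 alveolar and lung adenocarcinoma markers, NKX2-1 and FOXA2 lay under the filter, while NAPSA, SFTPB and SFTPC passed it. The list's signals ran from 7.6 to 190.6 and summed to 364 and 450. Immune, endothelial and fibroblast markers (6 analysed, 1 above the filter) summed to 205 and 173. The 1 above the filter was PECAM1, with 96.4 and 80.8. PTPRC, under the filter, read 25.9 and 3, the second value being under the floor of 13.8 set for signals. In a bulk RNA sample, a change in how many cells express a gene and a change in RNA per cell cannot be told apart.

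RefSeq promoter windows (GRCh38.p14) were read for 5 of the genes, DUSP6, SPRY2, SPRY4, SPRED1 and PHLDA1. No window was read for DUSP4, DUSP5, IER3, ETV4 or ETV5, so the lower genes DUSP4 and ETV4 are not covered. The 250 bases upstream of the outermost start are shown for SPRY2 and PHLDA1, which read higher with CTNNB1 siRNA, and for SPRED1, which differed less. SPRED1 also read higher in its brightest probe set, so no gene with a lower reading is shown. The sequences are written 5′ to 3′ on the gene's strand, and capitals would mark a motif match.
SPRY2, chr13:80341127-80341376, minus strand: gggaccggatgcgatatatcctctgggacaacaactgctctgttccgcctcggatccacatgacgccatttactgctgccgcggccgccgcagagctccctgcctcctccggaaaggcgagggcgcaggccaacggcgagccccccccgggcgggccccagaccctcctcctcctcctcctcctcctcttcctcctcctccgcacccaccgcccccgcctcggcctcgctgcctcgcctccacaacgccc
PHLDA1, chr12:76031777-76032026, minus strand: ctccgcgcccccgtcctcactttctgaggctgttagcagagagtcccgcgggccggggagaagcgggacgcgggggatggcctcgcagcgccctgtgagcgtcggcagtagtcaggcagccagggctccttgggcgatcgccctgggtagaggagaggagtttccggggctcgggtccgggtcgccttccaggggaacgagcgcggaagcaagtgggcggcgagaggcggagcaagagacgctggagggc
SPRED1, chr15:38252586-38252835, plus strand: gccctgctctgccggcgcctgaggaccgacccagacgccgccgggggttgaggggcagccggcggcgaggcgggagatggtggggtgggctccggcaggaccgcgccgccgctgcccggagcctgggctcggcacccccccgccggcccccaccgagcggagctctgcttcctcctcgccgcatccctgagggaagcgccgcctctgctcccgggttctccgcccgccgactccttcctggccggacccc

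Each stretch is rich in G and C, at 70.4% for SPRY2, 70.4% for PHLDA1 and 78.4% for SPRED1, against a median of 58% over all 35116 windows. The PHLDA1 stretch overlaps the gene PHLDA1-DT, a divergent transcript. Letters were searched on both strands for 5 motifs: TCF/LEF (CTTTGNN, each N being A or T), AP-1 (TGANTCA), the cyclic AMP response element (TGACGTCA), ETS (CCGGAAG) and the serum response element (CC, then 6 letters A or T, then GG). None of these motifs contains another. In all, 7 windows of the 5 genes were searched. None of the 3 stretches above holds any of these letters, and neither do the windows of DUSP6 and SPRY4. The DUSP6 window overlaps the gene POC1B-DUSP6. The SPRY4 window lies ahead of a start inside the gene, so the bases ahead of the outermost SPRY4 start were not searched. In all 35116 windows of this length, the TCF/LEF letters occurred in 12%, ETS in 8.52%, AP-1 in 6.57%, the cyclic AMP response element in 1.65% and the serum response element in 1.16%.

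SPRY2 has 2 further annotated starts inside the gene, and the 250 bases ahead of each hold TCF/LEF letters, capitalised in these stretches of 30 bases on the minus strand of chromosome 13. The window of the first stretch below holds 1 match and is 62.4% G and C. That of the other stretches holds 3 matches and is 41.2% G and C, beside the median of 58% over all windows. The share of 12% with TCF/LEF letters was taken over all windows, not over windows of like G and C content. A match is a description of letters, and binding was not measured.
SPRY2, chr13:80340244-80340273: agagaaaaacaCTTTGTAttttccaggttg
SPRY2, chr13:80339758-80339787: tgtgtgtttttTACAAAGcagtttctgtgt
SPRY2, chr13:80339660-80339689: atgggggtTTCAAAGcactTTCAAAGggga

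The values are MAS5 signals, which combine the probes of a probe set into 1 linear number, and ratios are given as log2 of CTNNB1 siRNA over control siRNA. A gene is represented by its probe set with the highest mean signal. With 1 array a group there was no replicate, and the only measure of error at hand was the disagreement between probe sets of 1 gene. Its pooled SD was 0.42 on the log2 scale over 5791 genes, and 0.29 among bright probe sets, with mean signals of at least 209. The probe set SD used below is the 0.42, although the brightest probe set of every member reached the signal of 209. This SD covers error between probe sets and isoform differences, not variation between cultures or arrays. The depth of an array has no counterpart in reads, and the number of arrays limits the precision.

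The 10 genes divided by size and direction. IER3, DUSP5, PHLDA1, SPRY2 and SPRY4 read between 1.71-fold and 1.99-fold higher with CTNNB1 siRNA. SPRED1, DUSP6 and ETV5 differed by less than the probe set SD of 0.42, and DUSP4 and ETV4 were lower. SPRED1, with a log2 ratio of 0.35, passed the SD of 0.29 among bright probe sets. None of the 10 was at least 2-fold higher, where 2.29% of all genes were, and 1 of 10 (ETV4) was at least 2-fold lower, where 2.38% of all genes were. With a limit of 1.5-fold, set after the values were seen, 5 of 10 were higher and 1 lower, beside 11.2% and 7.61% of all genes. The members were chosen with this contrast known, so these shares carry no weight of evidence. The counts at 1.5-fold became 3 higher and 2 lower after loess or quantile normalization.

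**Figure D1:**
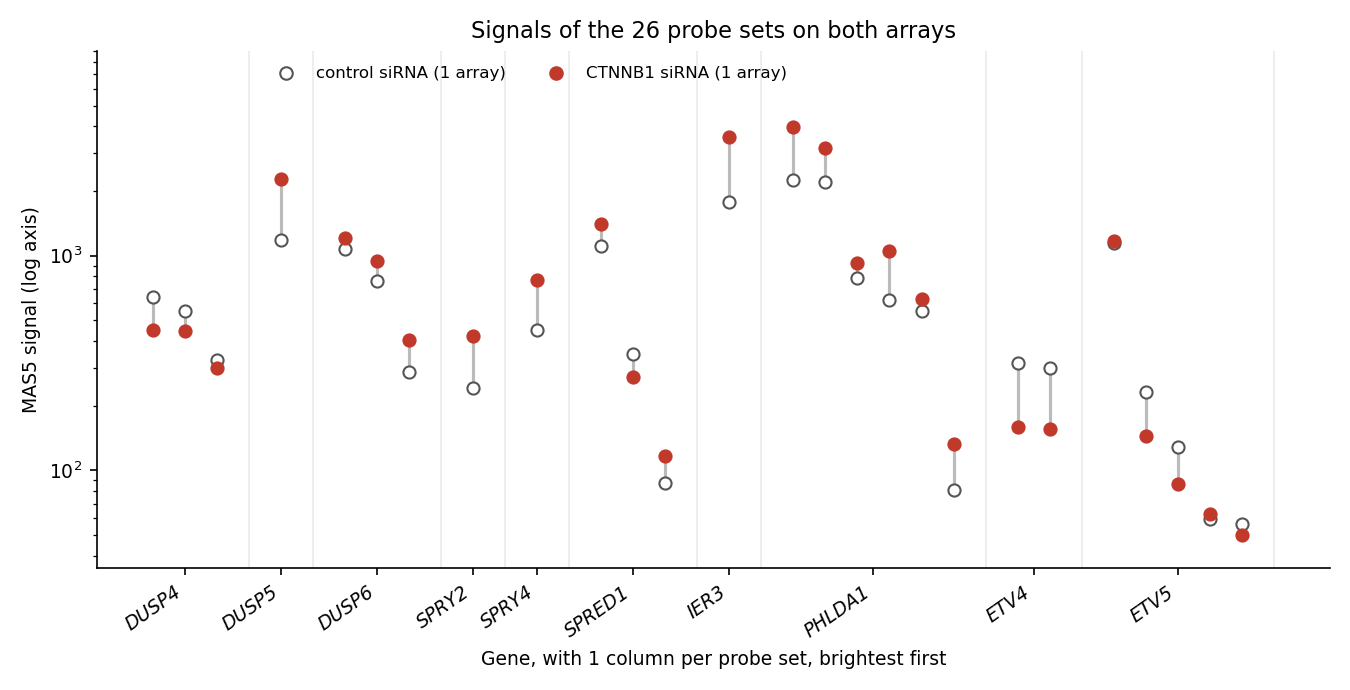
MAS5 signals (log axis) of all 26 probe sets on the control siRNA array (open circles) and the CTNNB1 siRNA array (filled circles), with a line joining the 2 readings of a probe set and no replicate. All 6 PHLDA1 probe sets lie higher with CTNNB1 siRNA, from 81.2 to 132.7 for the dimmest, while all 3 DUSP4 and both ETV4 probe sets lie lower.

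The 3 phosphatase genes did not share a direction. DUSP5, which encodes a nuclear phosphatase specific for ERK, had 1 probe set (209457_at), and it read 1178 with control siRNA and 2277 with CTNNB1 siRNA. That is 1.93-fold higher, a log2 ratio of 0.95 or 2.25 times the probe set SD, at the 97.3 percentile of the ratios of all genes. No second probe set was there to compare it with.

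DUSP6, the cytoplasmic phosphatase of ERK, read 1070 and 1212 in its brightest probe set (208891_at), a log2 ratio of 0.18. Its other probe sets read 765 and 941 (208892_s_at) and 287 and 406 (208893_s_at), with log2 ratios of 0.30 and 0.50. All 3 were higher with CTNNB1 siRNA as deposited, with a mean of 0.33 ± 0.16 (SD over 3 probe sets). The size is close to the 0.25 median of genes of the same signal decile, and the sign of the brightest probe set turned to -0.08 after loess and -0.09 after quantile normalization.

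DUSP4, a nuclear phosphatase that acts on ERK and other MAP kinases, was lower in all 3 probe sets. Signals were 639 and 452 (226034_at), 551 and 446 (204015_s_at) and 326 and 300 (204014_at). The log2 ratios were -0.50, -0.30 and -0.12. The brightest probe set alone passed the probe set SD of 0.42, and 204015_s_at also passed the 0.29 of bright probe sets. The mean of the 3 log2 ratios was -0.31 ± 0.19 (SD over 3 probe sets), and the brightest probe set lay at the 9.63 percentile of all genes. Between phosphatases, the log2 ratio of DUSP5 exceeded that of DUSP4 by 1.45 and that of DUSP6 by 0.77, where a difference of 2 probe sets has an SD of 0.60.

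The Sprouty genes of the set, SPRY2 and SPRY4, had nearly the same ratio. SPRY2, an inhibitor of receptor tyrosine kinase signalling, read 241 and 423 (204011_at), 1.76-fold higher. SPRY4, its relative, read 450 and 771 (221489_s_at), 1.71-fold higher. The log2 ratios of 0.81 and 0.78 differed by 0.04 and lay at the 95.5 and 94.7 percentiles of all genes. Each is 1.92 or 1.83 times the probe set SD, and each gene had 1 probe set. The family did not move as a whole. SPRY1, outside the set and named after its value was seen, read 140 and 123 (212558_at, log2 ratio -0.19). Its 2 entering probe sets were both lower, down to -0.97.

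SPRED1, a Sprouty-related protein that works with neurofibromin at RAS, did not hold 1 direction. Its brightest probe set (226837_at) read 1110 and 1411, and the dimmest (244439_at) 87.2 and 117. The third (235074_at) went the other way, 348 and 272. The log2 ratios of 0.35, 0.42 and -0.36 had a mean of 0.14 ± 0.43 (SD over 3 probe sets), so no difference larger than the disagreement between its probe sets was seen. After loess the brightest probe set had a log2 ratio of 0.08. The difference between SPRY2 and SPRED1, 0.47, was smaller than the SD of a difference, 0.60, which rests on the SD of 0.42. No SD of a difference was taken among bright probe sets, where the SD was 0.29.

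**Figure D2:**
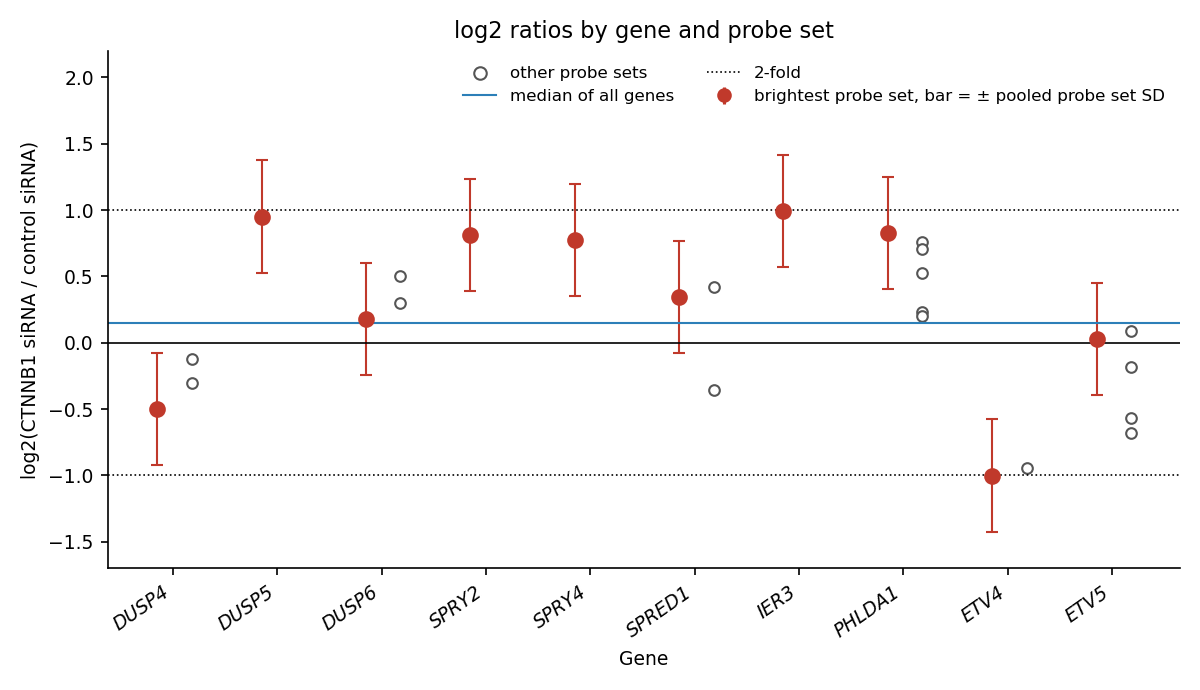
Log2 ratios of CTNNB1 siRNA over control siRNA for the brightest probe set of each gene (filled, bar = ± the pooled probe set SD of 0.42) and for its other probe sets (open); the blue line is the median of all genes, 0.15, and dotted lines mark 2-fold. DUSP5, SPRY2, SPRY4, IER3 and PHLDA1 lie above 0.75, ETV4 lies at the lower 2-fold line, and the probe sets of SPRED1 and ETV5 lie on both sides of 0.

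IER3 and PHLDA1 are early response genes. IER3, a short-lived protein induced by growth factors and stress and linked to cell survival, had the highest ratio of the set. Its probe set (201631_s_at) read 1783 and 3551, 1.99-fold higher, just short of the 2-fold limit. The log2 ratio of 0.99 is 2.35 times the probe set SD and lay at the 97.7 percentile of all genes. The name of this probe set ends in _s_at, which marks probes that can read more than 1 transcript.

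PHLDA1, a pleckstrin homology-like domain protein, had the most probe sets, and all 6 read higher with CTNNB1 siRNA. The brightest pair read 2243 and 3980 (217996_at) and 2213 and 3179 (225842_at). The next in signal read 786 and 921 (217997_at) and 620 and 1052 (217999_s_at). The dimmest read 550 and 631 (217998_at) and 81.2 and 133 (218000_s_at).

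These PHLDA1 log2 ratios ran from 0.20 to 0.83, with a mean of 0.54 ± 0.27 (SD over 6 probe sets). Of the 6, 4 passed the probe set SD. The brightest lay at the 95.8 percentile of all genes. After loess, 217997_at and 217998_at stood at -0.02 and -0.03, so the common direction of the 6 probe sets holds in the deposited scaling and not after loess.

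ETV4 and ETV5 differed from each other. ETV4 read 317 and 159 (211603_s_at) and 299 and 155 (1554576_a_at), so its probe sets gave nearly the same result. The control signal was 2-fold and 1.93-fold that with CTNNB1 siRNA, and the log2 ratios had a mean of -0.97 ± 0.04 (SD over 2 probe sets). The brighter is just past the 2-fold limit, -2.36 times the probe set SD, and at the 2.34 percentile of all genes. With scaling to a common median its log2 ratio was -0.87.

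The probe sets of ETV5 spanned 0.76 on the log2 scale, beside 0.77 for SPRED1. Its brightest probe set (203349_s_at) read 1148 and 1171, and 231083_at read 59.4 and 63. The other probe sets were lower, with 232 and 145 (203348_s_at), 128 and 86.3 (230102_at) and 56.5 and 49.9 (216375_s_at). The log2 ratios of the 5 ran from -0.68 to 0.08, with a mean of -0.26 ± 0.35 (SD over 5 probe sets). The ETV5 ratio read from the brightest probe set, 0.03, exceeds that of ETV4 by 1.03, against an SD of a difference of 0.60. Read from 203348_s_at instead, ETV5 would lie within the probe set SD of ETV4.

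Over all 26 probe sets, 17 were higher and 9 lower with CTNNB1 siRNA, and the median log2 ratio was 0.21. No signal of a member lay under the floor of 13.8, and all 26 passed the filter, a mean signal of at least 49.1. Of these, 6 lay under the 75th percentile of signals. As deposited, of 6 members with several probe sets, 4 held 1 direction, beside 54.5% of the 5791 genes with several. After loess the probe sets of DUSP6 and of PHLDA1 no longer shared a direction, and the share over all genes was not taken there. The range between a gene's probe sets had a median of 0.50 in these members and 0.46 in all such genes.

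**Figure D3:**
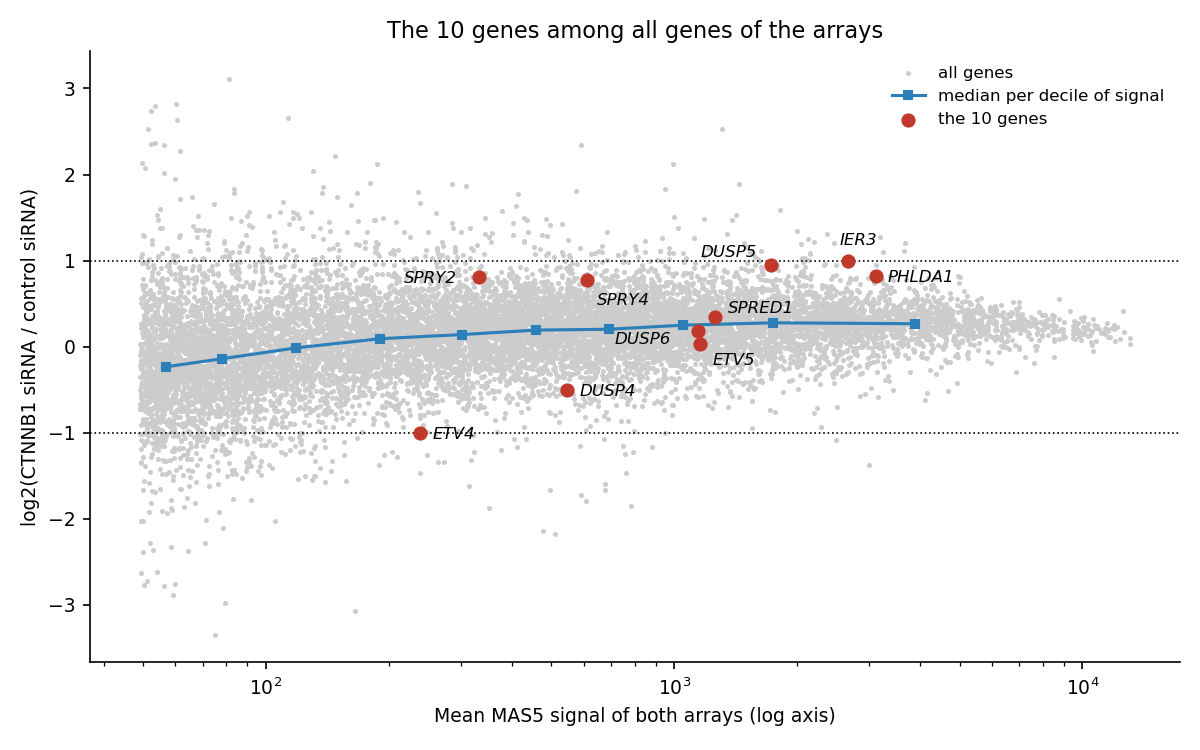
Log2 ratio against the mean signal of both arrays (log axis) for all 12531 genes (grey) and the 10 genes (red), with the median ratio in each decile of signal (blue) and 2-fold marked by dotted lines. The blue line climbs from -0.23 in the dimmest decile to 0.27 in the brightest, and IER3, DUSP5, PHLDA1, SPRY2 and SPRY4 lie above it while DUSP4 and ETV4 lie below it.

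Signal level moves with the ratio over the whole array. The brightest probe set of every member reached the signal of 209, as did 7913 of all 12531 genes. By decile of signal among all genes, the members ran from decile 4 (ETV4) to decile 10 (IER3 and PHLDA1). The median log2 ratio of all genes was 0.15, and that of the 7913 genes at or above the 75th percentile of signal was 0.23. The median of the 10 members was 0.56, with 7 above and 3 below the median of all genes. The arrays are not on 1 scale, with medians of 51.3 and 46.7 and 2% trimmed means of 233 and 270, and no source used here gives the authors' scaling. The median of the members ran from 0.26 to 0.70 over the settings tried, and the part that scaling plays in it was not tested beyond these.

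After loess, which sets genes against others of like signal, IER3 had a log2 ratio of 0.72, DUSP5 0.68, SPRY2 0.63, PHLDA1 0.55 and SPRY4 0.55. On the same scale ETV4 had -1.15, DUSP4 -0.72, ETV5 -0.23, DUSP6 -0.08 and SPRED1 0.08. The 5 higher and the 2 lower genes kept their direction under the 5 other scalings, as did SPRED1, while DUSP6 and ETV5 changed sign. The other floors and filters could not move any of the 10 ratios, and other rules for picking a probe set could not move the ratio of a gene with 1 probe set. IER3 and DUSP5 passed 2-fold in 1 of these scalings, that to a common median, at 1.13 and 1.09.

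**Figure D4:**
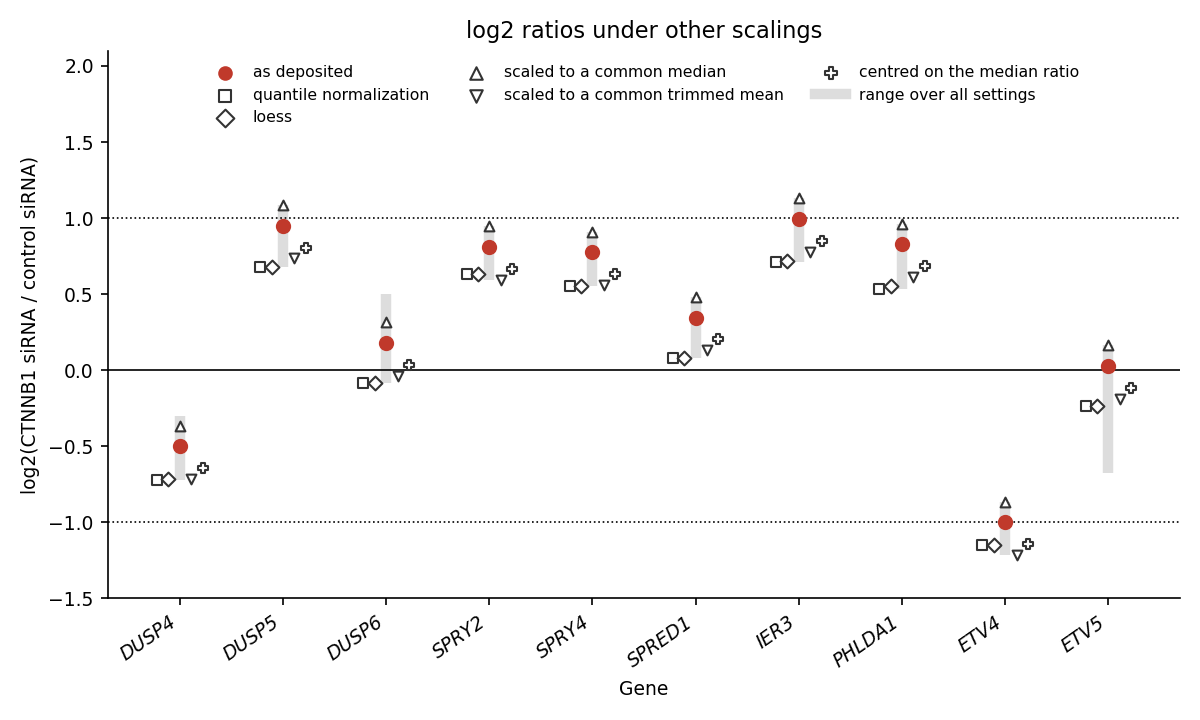
Log2 ratio of each gene as deposited (filled circle), under 5 other scalings (open symbols) and the range over all settings tried (grey bar), with dotted lines at 2-fold. Scaling to a common median gives the highest value of the 5 scalings for every gene, 1.13 for IER3 and -0.87 for ETV4, and the bars of DUSP6 and ETV5 cross 0.

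Relatives of the members in the same families went both ways. Of 16 listed, 12 entered, and 0 were at least 2-fold higher or lower, beside 2.29% higher and 2.38% lower among all genes. There were 6 above 0 and 6 below, where 8024 of all 12531 genes were above 0. The median log2 ratio was 0.09, beside 0.15 for all genes, and ran from -0.17 to 0.26 over the other settings. After loess it was -0.12, beside -0.02 for all genes. DUSP7, another cytoplasmic ERK phosphatase, read 132 and 256 (log2 ratio 0.96), and DUSP9, also of this group, 58.4 and 95.6 (0.71). DUSP16, which acts mainly on JNK and p38, read 257 and 156 (-0.72), although its 3 entering probe sets reached up to 0.15. IER5, an early response gene, read 1305 and 2081 (0.67).

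The kinase cascade was read from its transcripts. Of 23 cascade genes listed, 17 were analysed and 16 entered, with 0 past 2-fold in either direction, beside 2.29% higher and 2.38% lower among all genes. The median of 0.29 stood beside 0.15 for all genes and 0.23 for bright genes. It was 0.05 after loess, beside -0.02 for all genes, and ran from 0.04 to 0.59 over the other settings. The largest differences were in RPS6KA1, an ERK-activated ribosomal S6 kinase (405 and 642, log2 ratio 0.67), the adaptor GAB1 (139 and 88.6, -0.65), MAPK3, which encodes ERK1 (208 and 319, 0.62), and RPS6KA2 (113 and 148, 0.39). These are transcript levels, and ERK phosphorylation was not measured.

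Among other genes that ERK signalling is known to induce, some passed 2-fold. Of 18 listed, 16 were analysed and 12 entered, 3 of them at least 2-fold higher and 0 at least 2-fold lower, beside 2.29% and 2.38% of all genes. The median was 0.50, beside 0.15 for all genes and 0.23 for bright genes. It was 0.39 after loess, beside -0.02 for all genes. Over the other settings it ran from 0.33 to 0.64, while the median of all genes ran from -0.07 to 0.29. PLAUR, the urokinase receptor gene, read 729 and 2099 (log2 ratio 1.53), with 0.62 to 1.84 over its 3 entering probe sets. FOSL1, an AP-1 subunit, read 777 and 1919 (1.30), and JUN, its partner, 411 and 921 (1.17, and 0.94 after loess). The 3 entering JUN probe sets ran from 0.33 to 1.29, so not all of them passed 2-fold. HBEGF, a ligand of the EGF receptor, read 609 and 1147 (0.91). At the other end stood FOS, with 69.4 and 57.8 (-0.26), named after its value was seen.

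Among transcription factors tied to ERK, 9 of 10 were analysed and all 9 entered, with 1 at least 2-fold higher and 0 at least 2-fold lower, beside 2.29% and 2.38% of all genes. The median was 0.53, beside 0.15 for all genes and 0.23 for bright genes. It was 0.43 after loess, beside -0.02 for all genes. Over the other settings it ran from 0.32 to 0.81, while the median of all genes ran from -0.07 to 0.29. This list and the 3 before it were chosen with earlier results of these data known. ETS1 read 1245 and 2848 (log2 ratio 1.19, and 0.92 after loess), although its 3 probe sets ran down to -0.18. ELK3, a partner of serum response factor, read 2125 and 4101 (0.95), ETS2 232 and 406 (0.81) and GABPA 790 and 1274 (0.69). Many of these genes answer to other pathways as well, and what moved them was not tested.

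**Figure D5:**
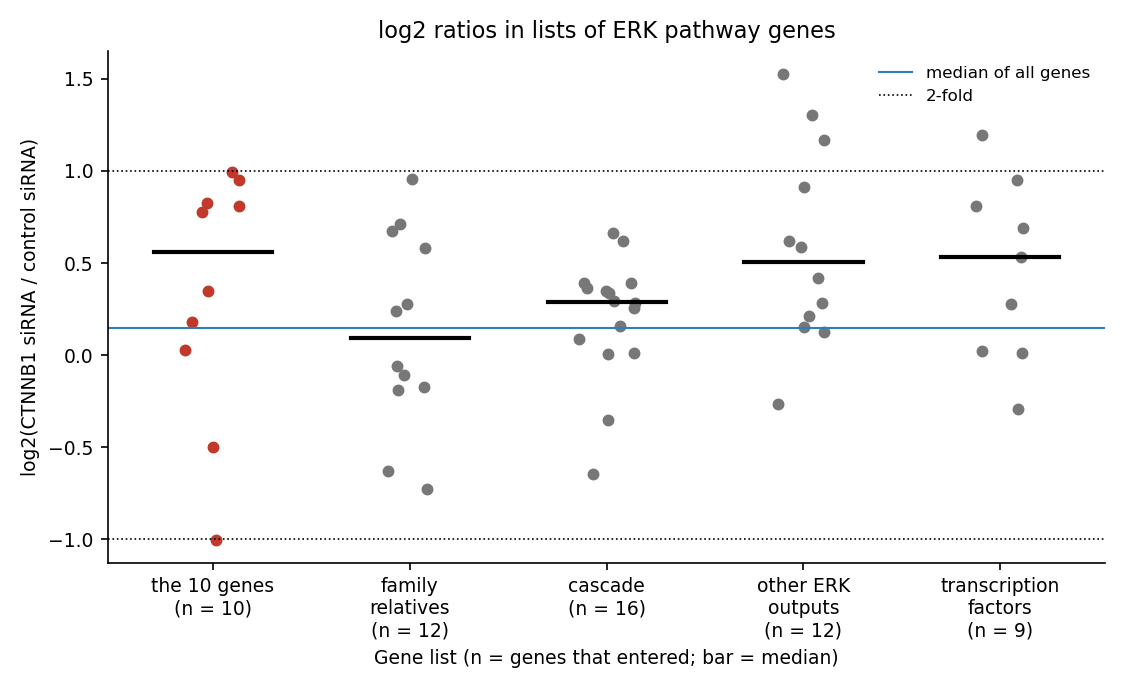
Log2 ratios of the 10 genes (red) and of 4 lists of other ERK pathway genes (grey), 1 point a gene, with a bar at each list's median, the median of all genes in blue and 2-fold dotted. The bars lie at 0.56, 0.09 for family relatives, 0.29 for the cascade, 0.50 for other ERK outputs and 0.53 for transcription factors.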

How the data were processed

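The deposited table holds 1 linear MAS5 signal intensity per probe set and array, computed by the authors with MAS5 per the submitters' processing notes. The version, target intensity, scaling and detection calls are in none of the sources used. Symbols came from GEO's platform annotation (41097 of 54675 probe sets with 1 symbol), updated through Entrez numbers to RefSeq for 41043. Intensities under 13.8 (25th percentile of all values) were set to that floor, log2 ratios were taken as deposited, and a gene was read from its brightest probe set with a mean signal of at least 49.1 (the median). With 1 array per group there was no test and no p-value. Calls used a 2-fold size rule.

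The members and lists were chosen with earlier results of these data known. Named were all 10 members and, from each of 4 other lists, up to 4 entering genes with the largest absolute ratio and any past 2-fold. SPRY1 and FOS were added after their values were seen. Some listed genes were not analysed here. Alternatives were 5 scalings (loess span 0.3), 2 floors, 2 filters, 2 rules for picking a probe set, and leaving out _x_at and _s_at probe sets. Calculations used Python 3.11.15, numpy 2.4.6, pandas 2.3.3 and statsmodels 0.14.6 and were tested on simulated data.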

Additional observations from a re-analysis of the deposited data

How the results depend on the processing

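Results were taken as changed when a count moved by over 1.5 times or a log2 ratio by more than the probe set SD of 0.42. Scaling to a common median gave 2 of the 10 genes at least 2-fold higher (IER3, DUSP5) and 0 at least 2-fold lower, with 472 of all genes higher and 183 lower. The count of members at least 2-fold lower was also 0 with the median over probe sets and without _x_at and _s_at probe sets, since ETV4 lies at the limit. ETV5 had a log2 ratio of -0.68 when read from its most extreme probe set and -0.57 without _x_at and _s_at probe sets, where IER3 and SPRY4 did not enter. At 1.5-fold, chosen after seeing the data, 3 members were higher after quantile normalization, after loess and without _x_at and _s_at probe sets. There were 2 lower after quantile normalization, loess, scaling to a common trimmed mean, centring, and reading the most extreme probe set.

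Counts of all genes at least 2-fold higher and lower were 126 and 544 with a common trimmed mean, 721 and 1271 with no filter, 139 and 34 when the filter was the 75th percentile, and 679 and 477 for the most extreme probe set. Centring left 170 higher, and the floor at the median left 160 lower. No paired analysis was possible because each group is 1 array. Signal over background is unknown without detection calls, and dim probe sets, such as 4 of ETV5, are the least certain.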
